A study of Homo sapiens with 8 samples.

Results

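The genes described here belong to the insulin-like growth factor (IGF) axis: the ligand IGF1, its receptor IGF1R, the carrier subunit IGFALS and the binding proteins IGFBP1 to IGFBP7. They were chosen by name, and each was read from the probe set that the platform annotation pairs with that symbol alone. For a gene with more than 1 such probe set, the brightest by its average over the 8 arrays was used. Of the 10 genes listed, 9 had such a probe set, among 18404 genes in all. IGFBP6 was named only together with another gene and was not analysed here.

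The samples were HepG2 cultures, an established line grown from a liver tumour that retains hepatocyte traits, profiled on 8 single-channel whole-transcript arrays. In 4 cultures the cells received 0.5 mM hydrogen peroxide (H2O2) in medium for 60 minutes to make them senescent, that is, to arrest their division lastingly. The other 4 cultures received medium alone for the same time. All cultures were washed and kept for 5 days before the senescent phenotype was examined, and the labels give no separate time for RNA collection. The submitters describe the 4 cultures per group as biological replicates, and all came from the same tumour line, which limits them as a model of hepatocytes. Values are the log2 expression values deposited by the authors. Every difference is H2O2 minus untreated with its standard error from limma, a linear model fitted over all genes, and a gene was called at a Benjamini-Hochberg adjusted p under 0.05.

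IGFs are peptide hormones that promote growth and survival through IGF1R, a receptor tyrosine kinase of the insulin receptor family. The binding proteins hold IGFs in blood and tissue fluid, prolong their life and limit their access to the receptor, and proteases release the ligand by cutting them. The liver is the main source of circulating IGF1 and of several binding proteins, and some binding proteins are known secretory products of senescent cells.

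Array medians lay between 6.85 and 6.93. Pearson's r across probe sets, which are not independent of each other, was 0.9905 to 0.9959 between arrays of a group and 0.9789 to 0.9846 between groups. The cyclin-dependent kinase inhibitor CDKN1A averaged 10.89 ± 0.072 in H2O2 cultures and 8.53 ± 0.062 in untreated cultures, and the proliferation marker MKI67 averaged 8.08 ± 0.18 and 9.40 ± 0.18 (SD, n = 4 each). Of 8 measured hepatocyte markers 5 fell and 1 rose, with a mean level over the list of 11.61 to 11.89 on H2O2 arrays and 12.04 to 12.09 on untreated arrays. The mean level of 9 stellate cell and fibroblast markers was 6.54 to 6.79 on H2O2 arrays against 6.50 to 6.59 on untreated arrays, with 2 higher, ACTA2 and COL1A1, and 1 lower, PDGFRB. For 6 endothelial markers it was 5.79 to 6.00 against 5.85 to 5.99, with 0 higher and 1 lower. For 6 leukocyte markers it was 7.51 to 7.63 against 7.43 to 7.50, with CD68 and CD14 higher and 0 lower. The 4 leukocyte markers not called had differences below 0. LYZ, the brightest, averaged 12.83 and 12.90 and raised the list mean, while the defining leukocyte gene PTPRC averaged 4.09 and 4.23, below the array medians. Called genes made up 75.0% of the measured hepatocyte markers and 33.3% of the stellate cell and fibroblast markers. They made up 16.7% of the endothelial and 33.3% of the leukocyte markers, against 34.0% of all genes. The part of the marker shifts in the results below was not tested.

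The binding proteins moved in both directions. IGFBP7, IGFBP4 and IGFBP2 rose after H2O2, IGFBP1 fell, and IGFBP3 and IGFBP5 did not pass the test. The receptor IGF1R was called lower, and neither IGF1 nor IGFALS passed. Of these, 3 of the 9 measured genes were higher and 2 lower, where 19.2% of all genes were called higher and 14.8% lower. The median log2 difference was 0.080 over the 9 genes and -0.022 over all genes, and 0.66 over the 6 binding proteins alone. The groups did not overlap for 5 of the 9 genes, all of them binding proteins, and for 33.7% of all genes. In bulk RNA, fewer cells that express a gene and less RNA per cell cannot be told apart.

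**Figure D1:**
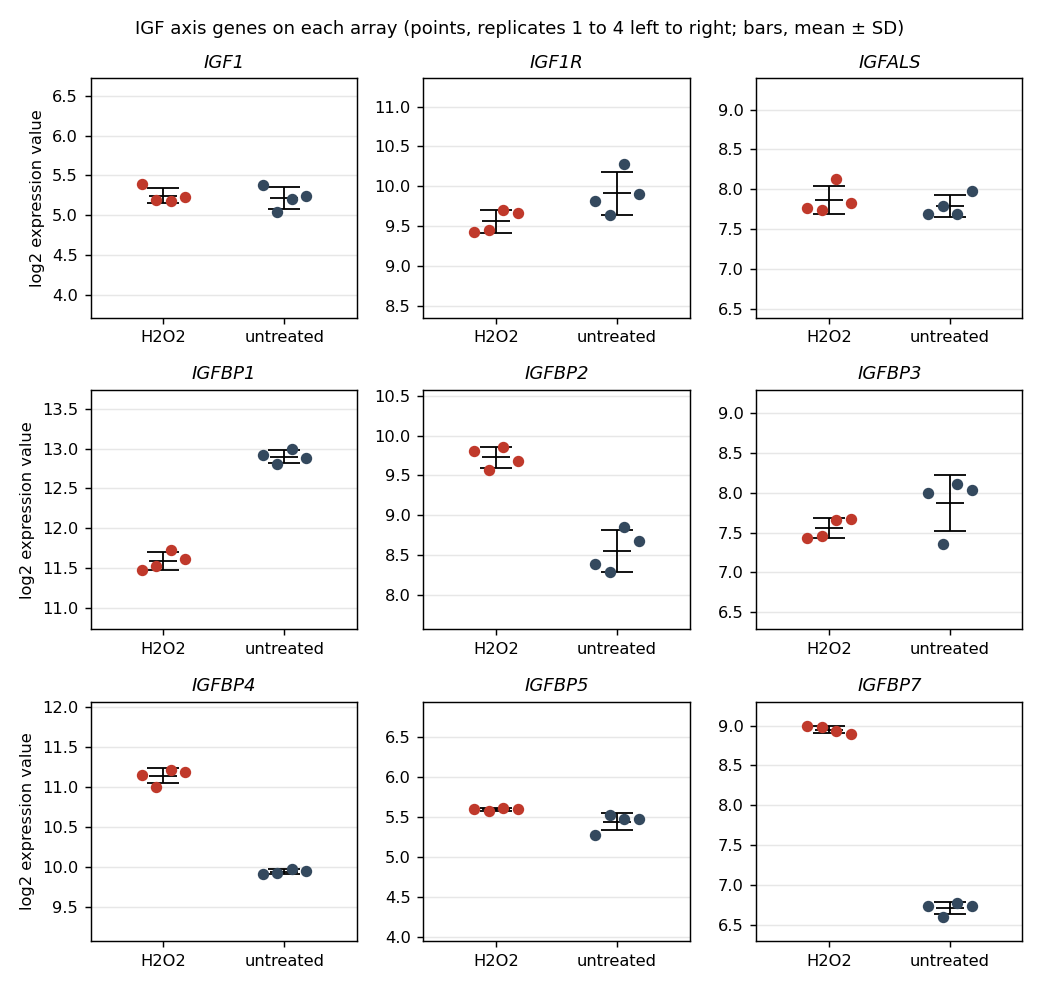
Log2 expression values (vertical axes, each spanning 3 log2 units) of the 9 measured IGF axis genes on the 4 H2O2 arrays (red) and the 4 untreated arrays (dark blue), with mean ± SD. The groups are far apart for IGFBP1, IGFBP2, IGFBP4 and IGFBP7, close but separate for IGFBP5, and overlap for IGF1, IGF1R, IGFALS and IGFBP3.

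The ligand and the carrier subunit come first. IGF1 read 5.39, 5.19, 5.18 and 5.23 in H2O2 replicates 1 to 4 and 5.38, 5.04, 5.21 and 5.24 in untreated replicates 1 to 4. All 8 values lay below the median of their array, and the groups overlapped almost fully. The difference was 0.029 ± 0.081 (95% interval -0.15 to 0.20, limma adjusted p = 0.827), at a signal that may be background. IGFALS encodes the acid-labile subunit, which in blood joins IGF and IGFBP3 or IGFBP5 in a long-lived complex. It read 7.77, 7.74, 8.13 and 7.83 in H2O2 cultures and 7.68, 7.79, 7.69 and 7.98 in untreated cultures. H2O2 replicate 3 was the highest of the 8, and the other arrays were interleaved. The difference of 0.080 ± 0.096 did not pass (95% interval -0.13 to 0.29, adjusted p = 0.584).

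IGF1R, the receptor through which IGF1 signals, had a pair of probe sets. The brighter read 9.43, 9.46, 9.71 and 9.67 in H2O2 cultures and 9.82, 9.64, 10.29 and 9.91 in untreated cultures. Untreated replicate 2 lay below H2O2 replicates 3 and 4, so the groups overlapped, and untreated replicate 3 stood highest. The difference was -0.35 ± 0.12 (limma adjusted p = 0.0348), and by the exact two-sided permutation test over the 8 arrays p = 0.0857. The call was lost without untreated replicate 3 (-0.23, adjusted p = 0.0844), untreated replicate 4 (-0.35, adjusted p = 0.0706), H2O2 replicate 1 (-0.30, adjusted p = 0.0962) or H2O2 replicate 2 (-0.31, adjusted p = 0.0827). The other probe set read 8.31, 8.21, 8.45 and 8.45 in H2O2 cultures and 8.98, 8.74, 9.41 and 8.88 in untreated cultures, and there the groups did not overlap. In a fit over 19158 probe sets its difference was -0.65 ± 0.12 (limma adjusted p = 0.00102), so both probe sets were lower after H2O2 and they differed in size.

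IGFBP7 showed the largest change of the 9 genes. Its protein binds IGFs weakly compared with the other family members, also binds insulin, and has been described as a secreted factor of senescent cells. It read 8.99, 8.98, 8.94 and 8.89 in H2O2 cultures and 6.74, 6.61, 6.78 and 6.74 in untreated cultures. The arrays of each group lay close together, and every H2O2 array was far above every untreated one. The rise of 2.23 ± 0.066, or 4.70-fold (limma adjusted p = 3.89e-11), ranked 42 among the rises of all 18404 genes. All 4 untreated values lay below the median of their array and may be background signal, so the fold is uncertain.

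IGFBP4 binds IGFs and mainly restrains their action until it is cut by the protease PAPPA. It read 11.15, 11.00, 11.22 and 11.18 in H2O2 cultures and 9.91, 9.925, 9.97 and 9.94 in untreated cultures. The untreated arrays were nearly alike, with an SD of 0.029, against 0.095 in H2O2 cultures. The rise was 1.20 ± 0.067, or 2.30-fold (limma adjusted p = 1.33e-08). IGFBP2, a binding protein that liver makes in fetal life and in fasting, read 9.81, 9.56, 9.85 and 9.68 in H2O2 cultures and 8.39, 8.29, 8.85 and 8.68 in untreated cultures. The lowest H2O2 value stood above the highest untreated one, with a wider spread in untreated cultures (SD 0.26 against 0.13 in H2O2 cultures). Its rise was 1.17 ± 0.11, or 2.25-fold (limma adjusted p = 2.71e-06). The rises of IGFBP4 and IGFBP2 ranked 224 and 236 among all genes, close in size, and their 95% intervals (1.06 to 1.35 and 0.93 to 1.42) overlapped.

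The promoters of IGFBP4 and IGFBP2, which rose by a like amount, are shown with that of IGFBP5, the neighbour of IGFBP2 that did not pass. Each is the 250 bases before a transcription start in RefSeq (GRCh38.p14), 5′ to 3′ on the gene's strand, and capitals mark the motifs TATAAA (the TATA box) and GGGCGG (the GC box) on either strand. The coordinates are chr17:40443200-40443449 (plus strand) for IGFBP4, chr2:216633170-216633419 (plus strand) for IGFBP2 and chr2:216695550-216695799 (minus strand) for IGFBP5. The table listed 3 starts for IGFBP2, of which that with the highest share of G and C is printed.
IGFBP4: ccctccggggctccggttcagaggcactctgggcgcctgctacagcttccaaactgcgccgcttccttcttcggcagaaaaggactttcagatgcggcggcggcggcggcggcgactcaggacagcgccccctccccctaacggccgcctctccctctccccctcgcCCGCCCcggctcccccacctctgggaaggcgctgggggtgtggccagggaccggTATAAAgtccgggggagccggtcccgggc
IGFBP2: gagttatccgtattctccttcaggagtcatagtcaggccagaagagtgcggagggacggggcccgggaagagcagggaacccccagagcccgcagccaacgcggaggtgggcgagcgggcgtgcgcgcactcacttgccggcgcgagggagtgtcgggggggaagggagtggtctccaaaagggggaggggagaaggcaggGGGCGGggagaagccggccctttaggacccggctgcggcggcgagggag
IGFBP5: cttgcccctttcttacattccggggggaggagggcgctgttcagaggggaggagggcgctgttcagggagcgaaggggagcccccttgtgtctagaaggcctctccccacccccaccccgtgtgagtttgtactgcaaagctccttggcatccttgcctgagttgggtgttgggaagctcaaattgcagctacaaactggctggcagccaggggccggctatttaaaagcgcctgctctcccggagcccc

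IGFBP4 held 1 TATAAA, starting at position -29 from the transcription start, and a GC box on the opposite strand at -83. IGFBP2 held no TATAAA at this start and a GC box at -49. IGFBP5 held neither exact motif in this window. Among 35116 promoter windows of the same length, 10.7% held TATAAA and 42.6% held GGGCGG, so the GC box is common. G and C made up 71.6% of the IGFBP4 window and 61.2% of the IGFBP5 window, against a median of 58.0% over all windows. The printed IGFBP2 start was picked for its share of 69.2%, and the other IGFBP2 starts had 56.8% and 56.4%, below that median. CpG dinucleotides numbered 24 in IGFBP4 and 8 in IGFBP5, against a median of 11 over all windows. In IGFBP2 they numbered 22 at the printed start and 7 and 4 at the others, so any likeness to IGFBP4 depends on the start chosen. The table held entries for 8 of the 10 listed genes, and these letters are a description, not evidence of a bound factor.

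IGFBP1 moved the other way. It is the binding protein that liver secretes acutely, held down by insulin and raised by fasting and hypoxia. It read 11.48, 11.53, 11.73 and 11.61 in H2O2 cultures and 12.92, 12.80, 12.99 and 12.88 in untreated cultures. All 4 H2O2 values were more than a full log2 unit below the lowest untreated value. The difference was -1.31 ± 0.074 (limma adjusted p = 1.51e-08), which left IGFBP1 2.48-fold lower in H2O2 cultures, rank 67 among the falls of all genes.

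IGFBP3, the main IGF carrier in blood and a known p53 target gene, read 7.44, 7.45, 7.66 and 7.67 in H2O2 cultures and 7.99, 7.36, 8.11 and 8.03 in untreated cultures. Untreated replicate 2 was the lowest of all 8 arrays, while the other 3 untreated arrays stood above every H2O2 array. With it, the difference was -0.32 ± 0.14 and did not pass (limma adjusted p = 0.0969). Without it, the difference was -0.49 and passed (limma adjusted p = 0.000564). IGFBP5, which acts mainly in bone, muscle and other connective tissue, read 5.60, 5.57, 5.61 and 5.60 in H2O2 cultures and 5.28, 5.53, 5.47 and 5.48 in untreated cultures. The groups did not overlap, by a narrow margin, and all 8 values lay below the median of their array. The difference of 0.15 ± 0.070 did not pass (limma adjusted p = 0.109), and it passed at 0.19 after quantile normalization (adjusted p = 0.0484).

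**Figure D2:**
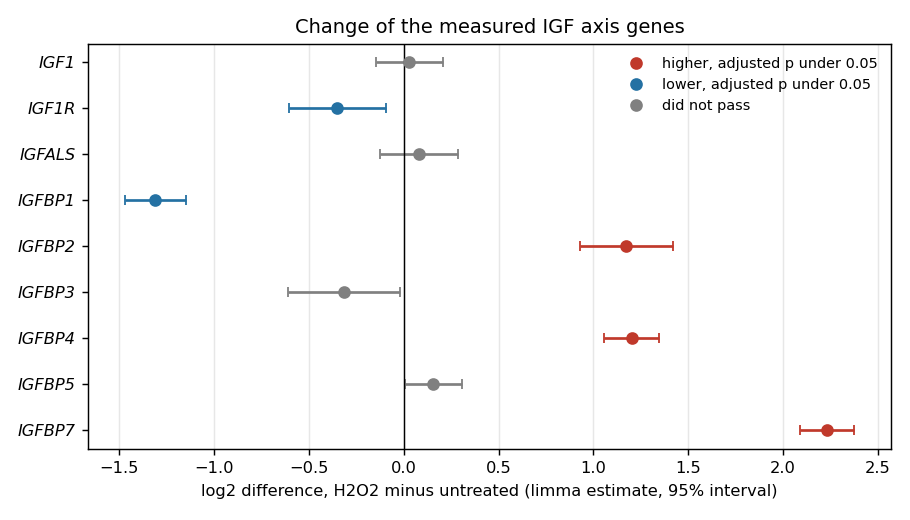
Log2 difference, H2O2 minus untreated, of each measured IGF axis gene (points) with its 95% interval from limma (n = 4 arrays a group). IGFBP7 (2.23), IGFBP4 (1.20) and IGFBP2 (1.17) lie to the right of 0, IGFBP1 (-1.31) and IGF1R (-0.35) to the left, and the 4 grey genes did not pass.

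The family contains adjacent genes on the same chromosome. In the RefSeq gene table, IGFBP1 and IGFBP3 are the nearest protein-coding neighbours of each other on chromosome 7, and IGFBP2 and IGFBP5 on chromosome 2. Members of each pair changed by different amounts. The within-array difference IGFBP1 minus IGFBP3 was 4.04, 4.08, 4.07 and 3.94 on H2O2 arrays and 4.93, 5.45, 4.89 and 4.85 on untreated arrays. Every H2O2 array lay below every untreated one, and the change of IGFBP1 was lower than that of IGFBP3 (difference in change -0.995 ± 0.11, 95% interval -1.24 to -0.75). The within-array difference IGFBP2 minus IGFBP5 was 4.21, 3.99, 4.24 and 4.08 on H2O2 arrays and 3.11, 2.76, 3.38 and 3.20 on untreated arrays. Here every H2O2 array lay above every untreated one, and the changes differed by 1.02 ± 0.11 (95% interval 0.78 to 1.26). For both pairs the exact two-sided permutation test gave p = 0.0286, the smallest that 70 splits allow, and the Benjamini-Hochberg value over the 2 pairs was the same. IGFBP5 was dim throughout, so its part of the difference is the less certain.

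**Figure D3:**
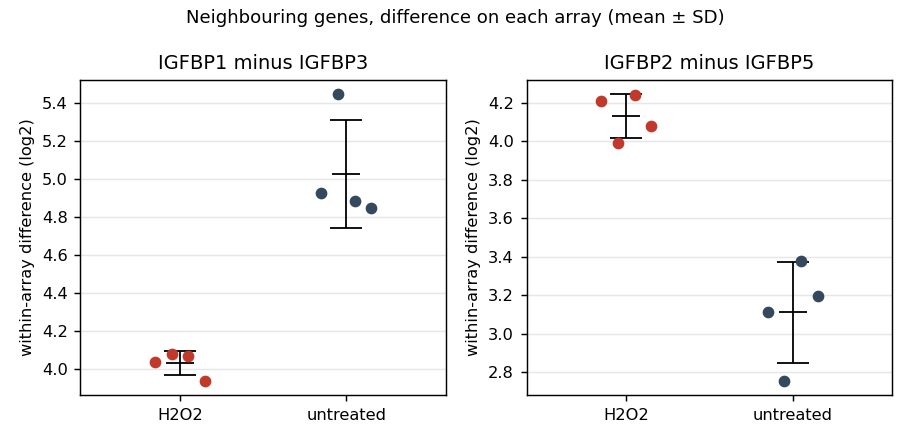
Within-array log2 difference (vertical axes, not starting at 0) between neighbouring genes, IGFBP1 minus IGFBP3 at left and IGFBP2 minus IGFBP5 at right, on each H2O2 (red) and untreated (dark blue) array with mean ± SD. The groups do not overlap for either pair, and the direction of each shift follows the order of subtraction.

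Some arrays were repeatedly at the end of their group across these genes. Untreated replicate 2 was the lowest of its group for 6 of the 9 genes, while it was lowest for 19.7% of all genes. Untreated replicate 3 was the highest of its group for 6 of the 9 genes and for 30.6% of all genes, and H2O2 replicate 3 was highest for 6 of the 9 genes and for 39.0% of all genes. IGF1R, IGFBP1, IGFBP2, IGFBP3 and IGFBP7 were each lowest in untreated replicate 2 and highest in untreated replicate 3. The spread among untreated cultures differed widely between these genes, with an SD of 0.35 for IGFBP3 and 0.076 for IGFBP7.

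Genes that act with the IGF axis were counted in lists, whose members overlap in part, and 34.0% of all genes were called in either direction. In the list of other IGF ligands, receptors and mRNA-binding proteins, 3 of 12 measured genes rose and 1 fell. The ligands IGF2 and INS, also listed, had no probe set with their symbol alone and were not analysed. IGF2R, the receptor that takes up IGF2 for breakdown in lysosomes, read 10.78, 10.78, 10.86 and 10.85 in H2O2 cultures and 10.10, 10.02, 10.51 and 10.16 in untreated cultures, a rise of 0.62 ± 0.095 (limma adjusted p = 0.000155). The insulin receptor INSR, which pairs with IGF1R in hybrid receptors, read 8.08, 8.22, 8.31 and 8.40 in H2O2 cultures and 8.68, 8.66, 9.09 and 8.76 in untreated cultures. Its groups did not overlap and the difference was -0.545 ± 0.10 (limma adjusted p = 0.000702), in the same direction as both IGF1R probe sets. The small secreted IGF-like family proteins IGFL4 (1.22 ± 0.082) and IGFL2 (0.58 ± 0.094) also rose, and all their values in H2O2 and in untreated cultures lay below the array medians. The median difference of the list was -0.050, against -0.022 over all genes.

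Among IGFBP proteases and their inhibitors 6 of 21 measured genes rose and 3 fell (median 0.015). PAPPA, the protease that cuts IGFBP4, averaged 5.73 ± 0.11 in H2O2 cultures and 5.71 ± 0.062 in untreated cultures and did not pass (0.015 ± 0.072, limma adjusted p = 0.905). STC2, a secreted inhibitor of PAPPA, read 8.20, 8.32, 8.01 and 8.02 in H2O2 cultures and 8.81, 8.93, 9.06 and 8.81 in untreated cultures, a difference of -0.77 ± 0.087 (adjusted p = 1.11e-05). The matrix proteases MMP3 (3.49 ± 0.086) and MMP2 (1.54 ± 0.097) rose. The plasminogen activator PLAU (1.47 ± 0.073) and the complement protease C1S (1.23 ± 0.11) also rose. Each of these proteases has been shown to cut at least 1 binding protein in other systems. All untreated values of MMP3, MMP2 and PLAU lay below the median of their array and may be background signal, so the size of these rises is uncertain. All PAPPA values, in H2O2 and in untreated cultures, also lay below the array medians. Plasminogen, PLG (-1.22 ± 0.093), and prothrombin, F2 (-0.47 ± 0.077), fell. PLG read 6.84, 6.90, 6.66 and 6.62 in H2O2 cultures, close to or below the array medians, so the size of its fall is uncertain.

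In the growth hormone axis, which drives hepatic IGF1 production, 7 of 13 measured genes fell and 3 rose (median -0.21). SOCS2, a feedback inhibitor of growth hormone receptor signalling, read 7.95, 7.89, 7.73 and 7.88 in H2O2 cultures and 6.25, 5.96, 5.93 and 6.00 in untreated cultures, a rise of 1.83 ± 0.083 (limma adjusted p = 1.78e-09). The kinase JAK2 rose by 1.11 ± 0.081, and the phosphatase PTPN11 by 0.21 ± 0.074, a call lost with arrays centred on their median (adjusted p = 0.0685), with the replicate block (adjusted p = 0.0766) and in 6 of 8 single-array omissions. All untreated values of SOCS2 and JAK2 lay below the median of their array and may be background signal, so the size of these rises is uncertain. BCL6, a repressor that opposes STAT5 (-0.84 ± 0.074), the prolactin receptor PRLR (-0.64 ± 0.099), the liver transcription factor ONECUT1 (-0.52 ± 0.065) and the feedback inhibitor SOCS1 (-0.52 ± 0.080) fell. The receptor itself, GHR, averaged 4.82 ± 0.24 in H2O2 cultures and 4.86 ± 0.12 in untreated cultures, below the array medians, and did not pass (-0.039 ± 0.11, adjusted p = 0.830).

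Of the genes that carry the signal from IGF1R and INSR, 10 of 38 measured rose and 7 fell (median 0.015), with 19 differences above 0 and 19 below. GRB10, an adaptor that dampens both receptors, showed the largest rise, reading 8.75, 8.75, 8.78 and 9.02 in H2O2 cultures and 7.20, 7.16, 7.76 and 7.58 in untreated cultures (1.40 ± 0.12, limma adjusted p = 1.04e-06). The regulatory PI3-kinase subunit PIK3R3 (1.23 ± 0.11), the adaptor SHC1 (0.62 ± 0.073) and the phosphatase PTPN1, which acts on the insulin receptor (0.48 ± 0.062), rose. All untreated values of PIK3R3 lay below the median of their array, so the size of its rise is uncertain. The AKT phosphatase PHLPP1 (-0.38 ± 0.066), the transcription factor FOXO1 (-0.34 ± 0.065), the adaptor GAB1 (-0.33 ± 0.077) and the catalytic subunit PIK3CB (-0.33 ± 0.088) fell. Of the docking proteins, IRS1 was called higher with overlapping groups (0.30 ± 0.089, adjusted p = 0.0187), a call lost without untreated replicate 1 or untreated replicate 2 (0.25 and 0.24). IRS2 gave -0.16 ± 0.082 and did not pass (adjusted p = 0.160). The number of rises in this list ranged from 6 without untreated replicate 1 or untreated replicate 2 to 13 in other single-array omissions.

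IGFBP1 is classed with liver genes that insulin represses. Of 8 others so listed, 5 fell and 0 rose (median -0.59), where 14.8% of all genes were called lower and 19.2% higher. G6PC1, which releases free glucose, was 7.37, 7.54, 7.09 and 7.13 in H2O2 cultures and 10.51, 9.72, 10.60 and 10.38 in untreated cultures. The coactivator PPARGC1A (-1.38 ± 0.094), the gluconeogenic enzyme PCK1 (-1.21 ± 0.16), the tyrosine catabolic enzyme TAT (-0.64 ± 0.089) and INSR also fell. TAT read 6.78, 6.97, 6.99 and 6.81 in H2O2 cultures, close to the array medians, so the size of its fall is uncertain. Hepatocyte markers fell alongside them, as given above. Outside the family, of 13 proteins with an IGFBP-type domain 2 rose and 2 fell (median -0.084). The matricellular proteins CCN1 and CCN2 went opposite ways, CCN1 by 0.99 ± 0.067 and CCN2 by -1.18 ± 0.068. CCN1 read 7.06, 6.94, 7.10 and 6.97 in untreated cultures, close to the array medians, so the size of its rise is uncertain. KAZALD1 was called lower (-0.27 ± 0.072). CCN6 was called higher (0.21 ± 0.064), a call lost without untreated replicate 4 (0.18) or H2O2 replicate 4 (0.20), or with the replicate block (adjusted p = 0.0502), and all its values lay below the array medians.

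**Figure D4:**
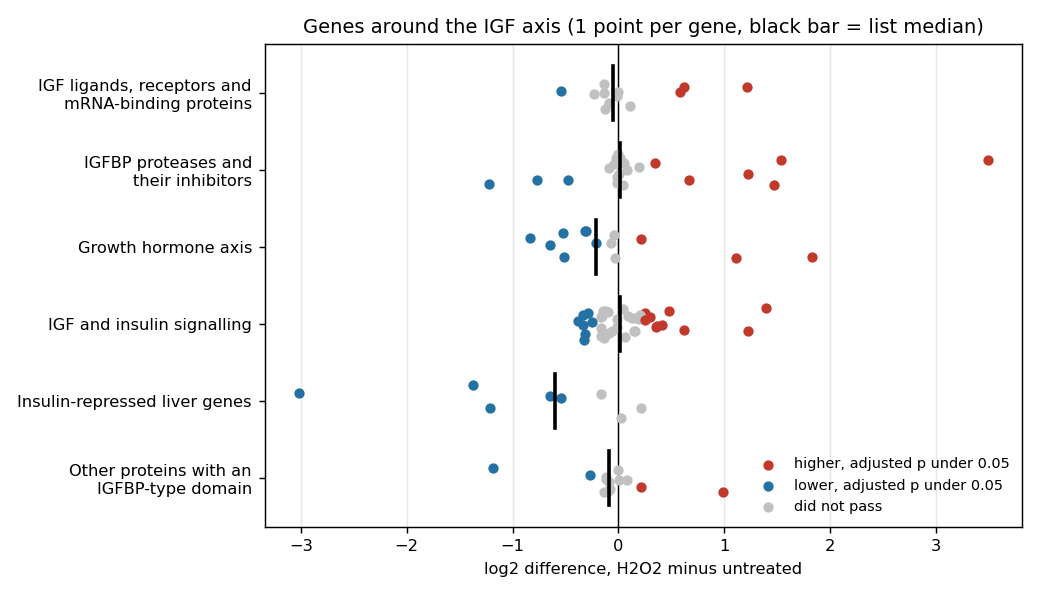
Log2 difference, H2O2 minus untreated (horizontal axis), of each measured gene in 6 lists around the IGF axis, with the list median as a black bar and vertical scatter without meaning. The insulin-repressed liver genes have their median at -0.59 and G6PC1 farthest left, and the other lists have medians between -0.21 and 0.015 with called genes on both sides.

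For each called IGF axis gene, the 3 genes with the most similar profile were those with the smallest root mean square distance over the 8 arrays after each gene was centred on its own mean. IGFBP7 was followed most closely by LAPTM5 (distance 0.0671 log2 units), MR1 (0.0747) and CCND2 (0.0903). For IGFBP4 they were SFN (0.0276), RHOC (0.0496) and ABAT (0.0510), the closest matches among the 5 called genes. IGFBP2 was nearest to RHBDF2 (0.0918), KIF3C (0.0930) and HSPG2 (0.0954). IGFBP1 was nearest to APOL1 (0.0908), NDRG1 (0.0912) and FZD4 (0.0931). IGF1R was nearest to AGO4 (0.0565), KLF12 (0.0614) and ZMIZ1 (0.0627). With 8 arrays in 2 groups, the distance mostly reflects the size of the group difference.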

How the data were processed

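RNA of 8 HepG2 cultures was hybridised to single-channel whole-transcript arrays, per the labels' protocols. The deposited table holds log2 expression values for 32321 probe sets, and the submitters' processing notes name limma without a role. Summarization and normalization are not given in the sources used here, and no scanner output, background or detection call was used. The number of arrays limits the precision.

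The platform annotation gave 19158 probe sets 1 symbol, 1388 several and 11775 none, and Entrez identifiers of 19128 matched the RefSeq table (GRCh38.p14), which changed 0 symbols. Where a gene had more than 1 probe set, the brightest on average was kept, leaving 18404 genes. limma (version 3.58.1 in R 4.3.3) fitted 1 mean per group with empirical Bayes moderation and Benjamini-Hochberg adjustment over all genes. Its script was tested on simulated data. Summaries and plots used Python 3.11.15 with pandas 2.3.3, numpy 2.4.6 and matplotlib 3.10.9.

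All IGF axis genes were described whatever their value. From each list, the 4 called genes that rose most and the 4 that fell most (or fewer, if fewer were called) were named, with INSR, IGF2R, IRS1, IRS2, GHR, PAPPA and STC2. Markers named beside their list counts were chosen after their values were seen. The genes, lists and tests were chosen with earlier results of these data known. Alternatives were quantile normalization, median centring, the replicate number as a block, leaving out genes below the median mean level, an intensity trend, the mean of probe sets, leaving out each array, and an exact permutation test.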

Additional observations from a re-analysis of the deposited data

Results flagged for a closer look

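In 5 of 128 groups of 4 arrays examined among the named genes, an end value stood apart from the other 3 by more than Dixon's 95% critical ratio, where chance gives about 5% of groups. IGFBP3 read 7.36 in untreated replicate 2, with the others between 7.99 and 8.11. F2 read 10.24 in H2O2 replicate 4, with the others between 10.415 and 10.44. GRB10 read 9.02 in H2O2 replicate 4, with the others between 8.75 and 8.78. PHLPP1 read 8.95 in untreated replicate 3, with the others between 8.76 and 8.78. APOL1 read 8.16 in H2O2 replicate 3, with the others between 8.06 and 8.08.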

How the results depend on the processing

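IGFBP1, IGFBP2, IGFBP4 and IGFBP7 kept their direction and call in all 14 refits each, at -1.36 to -1.27, 1.08 to 1.27, 1.18 to 1.25 and 2.20 to 2.25, and both neighbour differences kept theirs. These binding proteins each have 1 probe set. With the replicate block, dim genes left out, an intensity trend or the mean of probe sets, their differences could not change, only their calls. IGFBP7 passed the dim-gene cut of 7.52 only through its H2O2 level (mean 8.95, against 6.72 in untreated cultures). That refit is therefore no separate support for its rise. Single-array omissions gave 1 to 3 IGF axis genes called lower, IGF1R at -0.44 to -0.23, IGFBP3 at -0.49 to -0.24, IGF1 at -0.028 to 0.083 and IGFALS at -0.0077 to 0.14. The exact permutation test, whose p-values were not adjusted over genes, gave p = 0.0857 for IGF1R (-0.35) and p = 0.0286 for IGFBP5 (0.15). For IGFBP5 the limma p before adjustment was 0.0447, so this is a laxer threshold rather than a call. IGFBP5 passed after quantile normalization at 0.19. Single-array omissions also gave 1 to 2 falls among IGF ligands and receptors, 6 to 13 rises in IGF and insulin signalling, and 1 to 2 rises and 2 to 4 falls among the other proteins with an IGFBP-type domain. With dim genes left out, which tested 9202 genes, rises numbered 1 among ligands and receptors, 1 among IGFBP proteases, 1 in the growth hormone axis and 0 among proteins with an IGFBP-type domain, and falls numbered 2 among ligands and receptors, as with an intensity trend (2). The protease was C1S, which passed the cut of 7.52 only through its H2O2 level (mean 8.68, against 7.46 in untreated cultures). Its call there is therefore no separate support for its rise. GHR gave 0.0059 after quantile normalization and -0.13 to 0.043 in single-array omissions, where PAPPA gave -0.029 to 0.050. The median difference of all genes was -0.0055 after quantile normalization and -0.025 after median centring, against -0.022 as deposited.

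Deviations of same-numbered arrays from their group means correlated at -0.0678, 0.0602, -0.247 and 0.0940. These values show no clear pairing, but they cannot show whether same-numbered cultures were handled together. With the replicate number as a block, IGFBP3 passed at -0.32 (adjusted p = 0.0473), rises among proteins with an IGFBP-type domain numbered 1, and the block left 3 IGF axis genes called higher.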
